A study of Mus musculus with 6 samples.

Results

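The 8 neuropeptide precursor genes Penk, Pdyn, Tac1, Cartpt, Npy, Sst, Vip and Cck were followed across cell classes and genotypes in mouse striatum. They were chosen by name, and 8 of 8 were found among the 24841 genes measured. Nuclei of flash-frozen dissected striatum were sequenced in 6 libraries, 3 wild-type and 3 heterozygous for Celsr3, which encodes a seven-pass cadherin. The labels call the libraries of a genotype biological replicates and give no treatment, age, sex, strain or allele design.

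A neuropeptide precursor is a protein that is cut into signalling peptides inside dense-core vesicles by prohormone convertases. In the striatum the precursors are textbook labels of cell types. Medium spiny neurons (MSNs), the projection neurons, carry Tac1 (substance P) and Pdyn (dynorphins) on the direct pathway, marked by the dopamine receptor gene Drd1, and Penk (enkephalins) on the indirect pathway, marked by Drd2. Sst (somatostatin) and Npy (neuropeptide Y) mark one group of interneurons, Vip (vasoactive intestinal peptide) and Cck (cholecystokinin) mark others, and Cartpt (CART peptides) is known from the ventral striatum, the nucleus accumbens.

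The genes lie on chromosomes 4 (Penk, 4133536 to 4138815), 2 (Pdyn, 129686549 to 129699938), 6 (Tac1, 7555061 to 7562978, and Npy, 49822710 to 49829507), 13 (Cartpt, 99898483 to 99910179), 16 (Sst, 23889573 to 23891342), 10 (Vip, 5639193 to 5647617) and 9 (Cck, 121489824 to 121495694) in RefSeq's annotation of GRCm38.p6. Cck is on the chromosome of Celsr3, with 12636855 bases between them. RefSeq promoter sequence was given for 7 of the 8 genes. The cAMP response element, TGACGTCA, through which cAMP signalling is known to act on Sst, was searched on both strands over the 250 bases before each start, as was its half-site TGACG, which the full element contains. Sst and Cartpt held the full element, as did 1.546% of all 32851 promoters. Tac1, Vip and Cck held a half-site, found in 17.77% of promoters, while Pdyn and Npy held neither. One match per gene, the nearest to the start, is shown to let the elements be read side by side; Tac1 held another half-site farther away. Capitals mark the match, which is a description of letters and not of binding. Each window is 30 bases, 5′ to 3′ on the gene's strand, and the last capital lies 41 (Sst), 105 (Cartpt), 39 (Tac1), 75 (Vip) and 43 (Cck) bases before the start. The windows of Sst and Cartpt lie inside the gene spans given above, since the starts used for them are not the ends of those spans.
Sst, chr16:23890874-23890903, minus strand: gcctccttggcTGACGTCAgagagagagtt
Cartpt, chr13:99900777-99900806, minus strand: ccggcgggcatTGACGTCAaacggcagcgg
Tac1, chr6:7555006-7555035, plus strand: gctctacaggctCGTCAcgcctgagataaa
Vip, chr10:5639127-5639156, plus strand: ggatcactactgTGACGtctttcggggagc
Cck, chr9:121495724-121495753, minus strand: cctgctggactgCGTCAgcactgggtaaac

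Each value is a depth-corrected transcript count per nucleus, and a level is the mean of that value over the nuclei of a class in one library. Levels of one gene are compared between classes, and genes are not ranked against each other. The libraries held 7735 to 8875 nuclei with a median of 2456 to 3011 genes per nucleus, lowest in wild-type replicate 1. Of 48834 nuclei, 48020 were kept, and 274 of 48559 distinct barcodes occurred in more than 1 library. Marker genes that include none of the 8 precursors named 22 classes. The labelled tissue was met by its projection neurons: 8468 nuclei were D1 MSN-like (Drd1, Isl1, Ebf1) and 7133 were D2 MSN-like (Drd2, Adora2a, Gpr6). Celsr3 averaged 0.165 ± 0.016 in the D1 MSN-like nuclei of the wild type and 0.0938 ± 0.012 in those of the heterozygotes (SD, n = 3 each), without overlap, although the change did not pass adjustment (limma, Benjamini-Hochberg adjusted p = 0.134).

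Most precursors were also found in glia. Oligodendrocyte-like nuclei had levels of 0.837 for Penk, 0.494 for Tac1, 0.602 for Sst, 0.382 for Cck and 0.295 for Npy. For Pdyn, Cartpt and Vip they had 0.0508, 0.0231 and 0.0142 (means of 6 libraries). Across oligodendrocyte-, astrocyte-, microglia-, OPC- and endothelial-like nuclei, the Penk level ranged from 0.670 to 1.69 over classes and libraries. The median number of genes was 3267 in D2 MSN-like but 1876 in oligodendrocyte-like nuclei, and the part of free RNA in these levels was not tested. Glial and neuronal nuclei differ in genes per nucleus and the original depth is unknown, so a glial level is set beside a neuronal one below as a value and not as its background. One unnamed group of 1268 nuclei, cluster 11, held several precursors at once (Penk 2.47, Sst 2.32, Tac1 1.12 and Cck 1.08) and had a median of 1722 genes.

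Penk was highest in D2 MSN-like nuclei. Wild-type replicates 1 to 3 stood at 5.01, 5.01 and 4.50, and heterozygous replicates 1 to 3 at 4.41, 4.32 and 4.74. The mean of 4.67 ± 0.30 (SD, n = 6 libraries) was 1.89 times that of cluster 11, the next in the order, and the library ranges did not overlap. A value of 1 or more was found in 94.2% of D2 MSN-like nuclei, against 27.9% of D1 MSN-like and 38.2% of oligodendrocyte-like nuclei. In D1 MSN-like nuclei the level was 0.366 ± 0.057, below that of the oligodendrocyte-like nuclei. Eccentric MSN-like nuclei, a smaller MSN population named from Otof, Casz1 and related markers, stood at 1.30 ± 0.22, within the library ranges of macrophage-like (1.23 to 1.52) and mural-like nuclei (0.787 to 2.13).

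Within the D2 MSN-like nuclei, Penk was not uniform, although the precursors were kept out of the clustering genes. Cluster 10, 1393 nuclei in which the striosome genes Sema5b and Kremen1 were high, had Penk at 3.04 ± 0.38. Its libraries ranged from 2.82 to 3.80. The main cluster 2, of 5135 nuclei, had 5.03 ± 0.36 with libraries from 4.58 to 5.45, so every library of cluster 10 lay below every library of cluster 2. Cluster 25, of 605 nuclei led by the ventral gene Calcr and with Drd3 at 0.292 ± 0.18, had 5.37 ± 0.75 and overlapped cluster 2. Kremen1 was 0.465 ± 0.080 in cluster 10 and 0.124 ± 0.034 in cluster 2.

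Tac1 and Pdyn were the precursors of the D1 MSN-like nuclei. Tac1 stood at 1.59, 1.21 and 1.11 in wild-type replicates 1 to 3 and at 1.29, 1.19 and 1.31 in heterozygous replicates 1 to 3. Wild-type replicate 1, the library with the fewest genes per nucleus, was the highest. The mean was 1.28 ± 0.17, with a value of 1 or more in 67.3% of nuclei. Eccentric MSN-like nuclei had Tac1 at 1.70 ± 0.45, and their libraries overlapped those of the D1 MSN-like nuclei. D2 MSN-like nuclei had 0.312 ± 0.025, below the oligodendrocyte-like level.

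Pdyn reached 0.418 ± 0.056 in D1 MSN-like nuclei, with 0.453, 0.435 and 0.343 in the wild type and 0.354, 0.475 and 0.450 in the heterozygotes, which overlapped. D2 MSN-like nuclei had 0.0509 ± 0.013, close to the oligodendrocyte-like level. D1 MSN-like nuclei contributed 58.9% of all Pdyn in the kept nuclei, 36.8% of Tac1, and D2 MSN-like nuclei 53.1% of Penk. The second class for Pdyn, other GABAergic interneuron-like nuclei, had 0.198 ± 0.13 and overlapped the D1 MSN-like range.

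**Figure D1:**
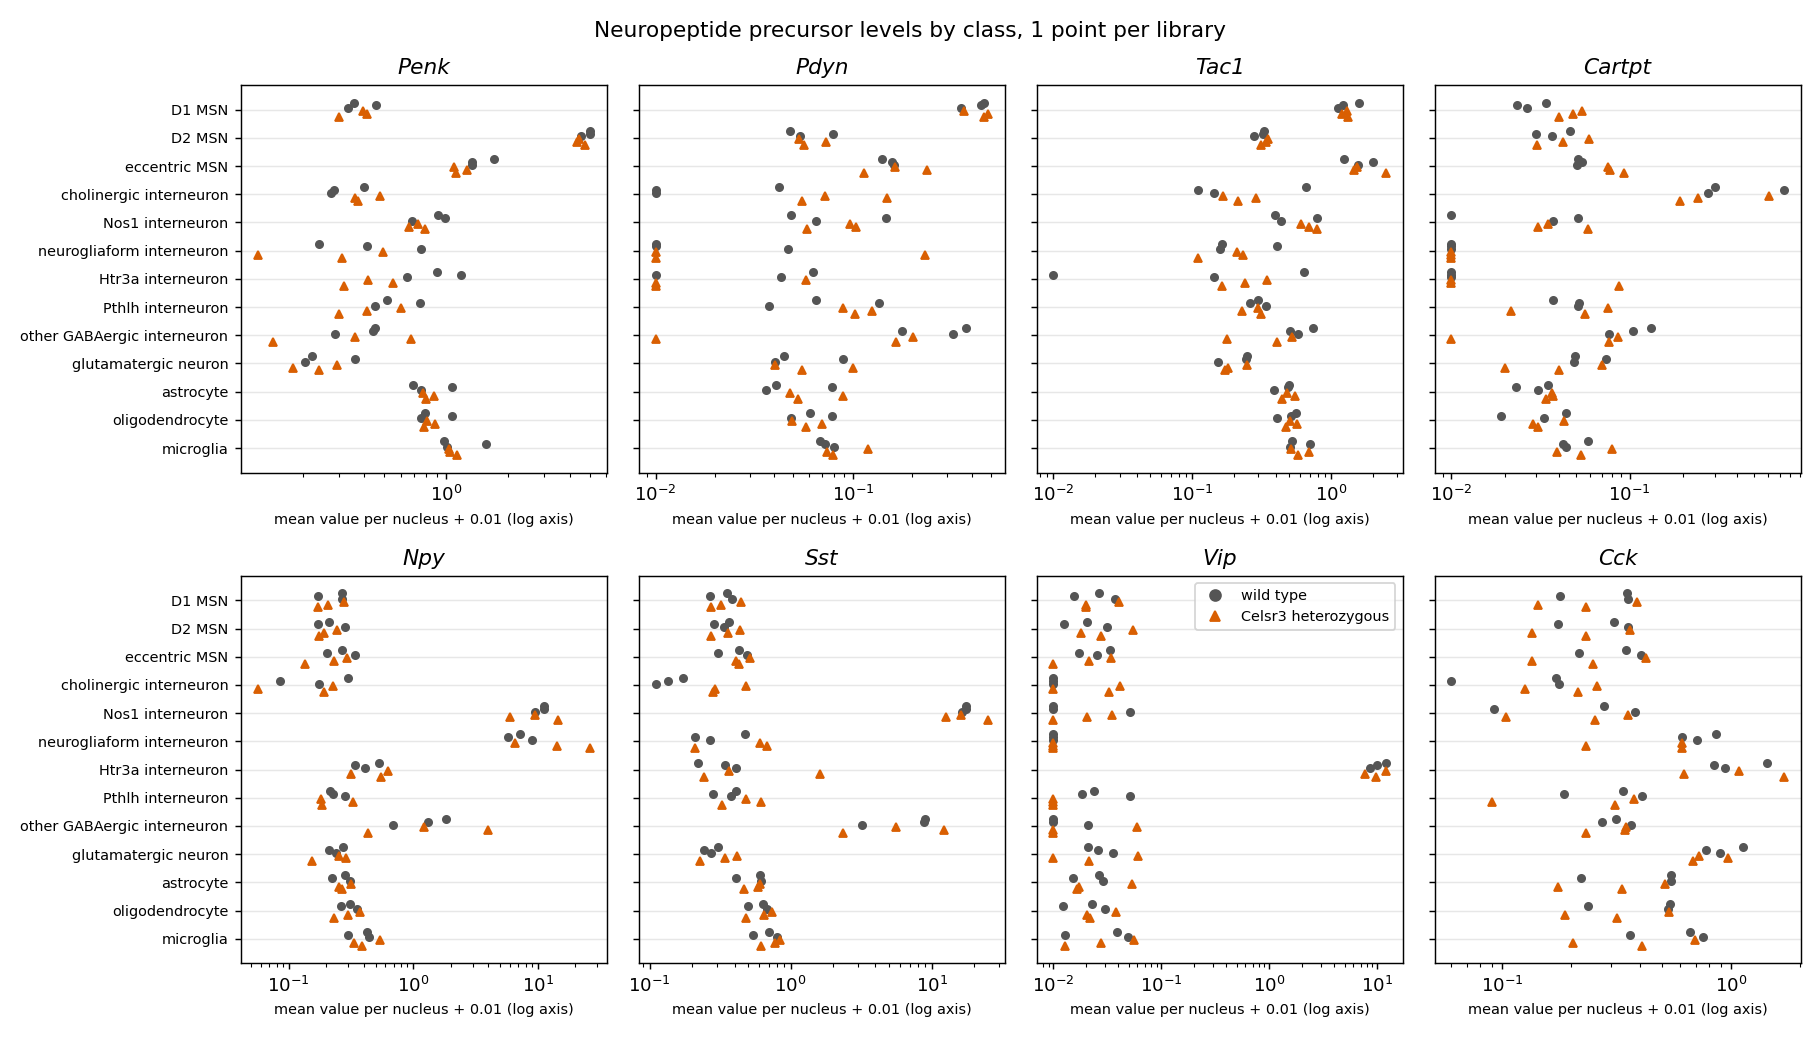
Mean value per nucleus plus 0.01, on a log axis, of the 8 precursors in 13 classes; each point is 1 library, circles wild type and triangles Celsr3 heterozygous. Penk stands out in D2 MSN-like nuclei, Npy and Sst in Nos1 interneuron-like nuclei and Vip in Htr3a interneuron-like nuclei, and the 2 genotypes overlap in each of these. Npy also stands out in neurogliaform interneuron-like nuclei, whose libraries overlap those of the Nos1 class.

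The 3 clusters of D1 MSN-like nuclei held Tac1 and Pdyn in different proportions. Cluster 13, of 1220 nuclei with the highest Sema5b (1.67 ± 0.38) and Kremen1 (0.590 ± 0.13) of the 3, had the highest Tac1, 2.37 ± 0.34. Its lowest library, at 2.10, was above the highest of the main cluster 1, at 1.30. Cluster 12, of 1264 nuclei led by Drd3 (0.487 ± 0.22) and with 3 of 12 markers of its class, had Pdyn at 0.845 ± 0.10, against 0.626 ± 0.076 in cluster 13 and 0.289 ± 0.058 in cluster 1. Cluster 1 lay below both others for Pdyn in every library, from 0.213 to 0.357. Tac1 in cluster 12 was 1.32 ± 0.42 and overlapped cluster 1 (1.06 ± 0.13).

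At the level of single D1 MSN-like nuclei, Pdyn was found in 32.0% of nuclei with Tac1 and in 23.1% of those without it. In oligodendrocyte-like nuclei the same shares were 3.93% and 3.84%. In D2 MSN-like nuclei, Tac1 was found in 24.7% of nuclei with Penk and in 38.0% of those without it. These are descriptions over nuclei, which are not replicates and differ in depth.

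**Figure D2:**
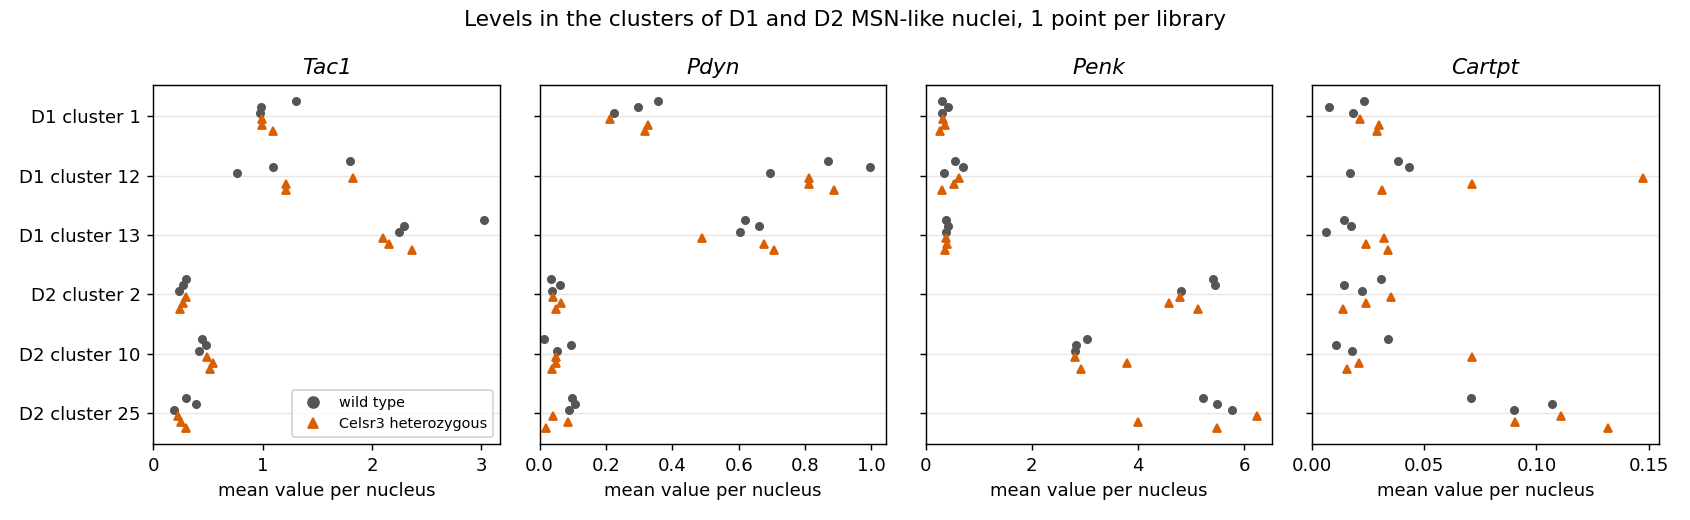
Mean value per nucleus of Tac1, Pdyn, Penk and Cartpt in the 3 D1 and 3 D2 MSN-like clusters; each point is 1 library, circles wild type and triangles Celsr3 heterozygous. Tac1 is highest in D1 cluster 13 (2.37), Pdyn in D1 cluster 12 (0.845), and Penk is lower in D2 cluster 10 (3.04) than in cluster 2 (5.03).

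Sst and Npy shared one class. In Nos1 interneuron-like nuclei, 416 nuclei named from Nos1, Chodl and other markers, Sst stood at 17.7, 17.4 and 16.5 in wild-type and 16.3, 12.7 and 25.2 in heterozygous replicates 1 to 3. Npy stood at 11.2, 11.2 and 9.48 against 9.53, 5.94 and 14.7. The 3 wild-type libraries lay close together for both genes, and heterozygous replicates 2 and 3 were the lowest and the highest, from 96 and 41 nuclei. The means over 6 libraries were 17.6 ± 4.1 for Sst and 10.3 ± 2.9 for Npy. At 3 or more per nucleus, 224 nuclei had both, 70 Sst alone, 1 Npy alone and 121 neither.

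The Nos1 class depended on how nuclei were grouped. When the precursors were allowed among the clustering genes, 256 of its nuclei stayed in the class, and the levels were 26.6 for Sst and 16.7 for Npy. The precursors could then shape the grouping, so these higher levels are not independent of it. Another 120 nuclei then fell into an unnamed cluster and 40 into the other GABAergic interneuron-like class.

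Npy was also high without Sst. Neurogliaform interneuron-like nuclei, 89 in all, had Npy at 11.6 ± 7.9, overlapping the Nos1 class, and none of the 57 nuclei with Npy at 3 or more had Sst at 3 or more. The spread was wide, from 5.80 to 26.5, with 5 to 27 nuclei per library. Other GABAergic interneuron-like nuclei had Sst at 6.85 ± 3.8 with Npy at 1.57 ± 1.3. At 3 or more per nucleus, 39 of them had both, 123 Sst alone, 10 Npy alone and 266 neither. Their Sst libraries did not overlap those of the Nos1 class.

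Vip was high in Htr3a interneuron-like nuclei, 123 nuclei named from Htr3a, Npas1, Calb2 and other markers. Its level was 12, 9.83 and 8.50 in the wild type and 11.9, 7.62 and 9.77 in the heterozygotes, which overlapped. The mean of 9.93 ± 1.8 was 107 times the next in the order, cluster 11. This class held 57.0% of all Vip from 0.0773% to 0.544% of the nuclei of a library, 6 to 42 nuclei each. Cck was also highest there, 1.09 ± 0.40, but with overlap with cluster 11 and glutamatergic neuron-like nuclei. Of the 67 nuclei with Vip at 3 or more, 8 had Cck at 3 or more. Htr3a and other GABAergic interneuron-like nuclei had their highest shares in heterozygous replicate 1 (0.544% and 2.37%), as had glutamatergic neuron-like nuclei (13.2%). Htr3a interneuron-like nuclei were scarcest in wild-type replicate 2 (0.0773%), the others in heterozygous replicate 2 (0.146% and 1.22%). Whether these nuclei came from the striatum itself was not tested.

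Among the named classes other than interneurons, Cck was highest in glutamatergic neuron-like nuclei, 0.854 ± 0.17, below the unnamed cluster 11 and overlapping it. They are a cell type that the striatum itself is not known to hold. Their clusters differed: 1.56 ± 0.50 in cluster 36, 1.40 ± 0.47 in cluster 23 and 0.426 ± 0.086 in cluster 15, the largest. In other classes the Cck level differed between libraries. Oligodendrocyte-like nuclei had 0.533, 0.227 and 0.519 in wild-type and 0.527, 0.178 and 0.307 in heterozygous replicates 1 to 3. Glutamatergic neuron-like nuclei made up 6.02%, 2.43% and 7.41% of the wild-type and 13.2%, 1.22% and 6.10% of the heterozygous libraries. Replicates numbered 2 of both genotypes were thus low in both measures. Slc17a7, a marker of glutamatergic neurons, was 0.238, 0.168 and 0.340 and then 0.466, 0.111 and 0.200 in the same oligodendrocyte-like nuclei. The part of RNA from glutamatergic neurons in the Cck level of the other classes was not tested.

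**Figure D3:**
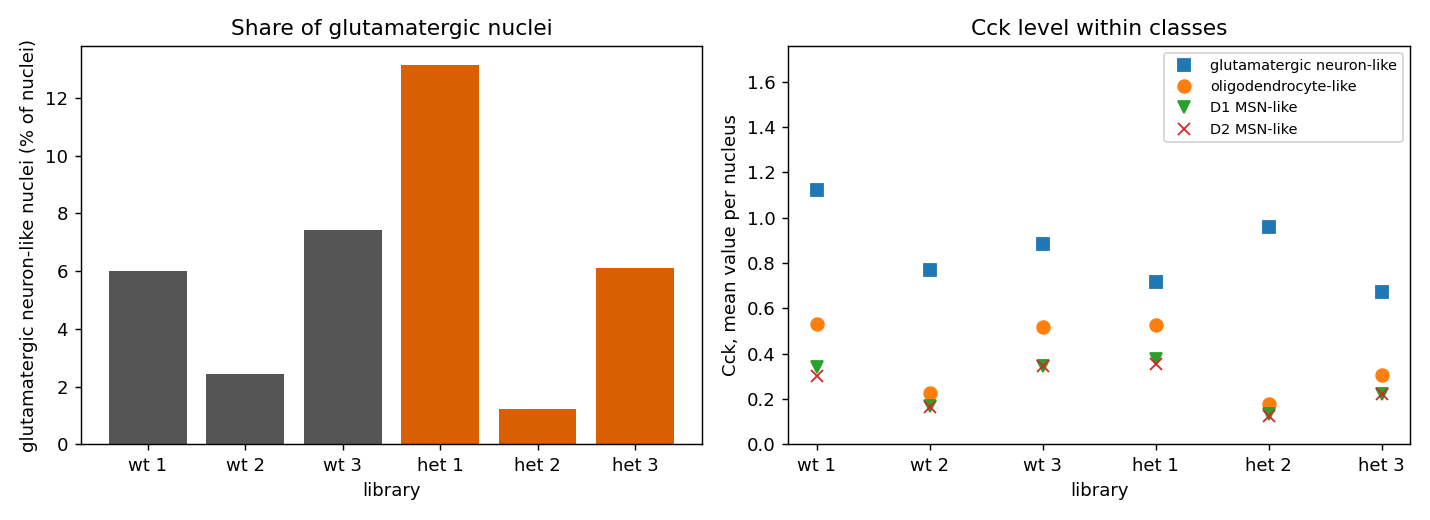
Left, glutamatergic neuron-like nuclei as a percentage of kept nuclei in each library (wt, wild type; het, Celsr3 heterozygous). Right, the mean Cck value per nucleus in 4 classes of the same libraries; wt 2 and het 2, with the lowest glutamatergic shares (2.43% and 1.22%), also have the lowest Cck in oligodendrocyte-like nuclei (0.227 and 0.178).

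Cartpt was low everywhere and highest in cholinergic interneuron-like nuclei, 220 nuclei named from Chat, Slc5a7 and other markers. Its level there was 0.382 ± 0.22, from 0.182 to 0.725 over libraries, with a value of 1 or more in 19.7% of nuclei against 1.98% of oligodendrocyte-like nuclei. The next in the order, the unnamed cluster 8 at 0.125 ± 0.063, overlapped it. In D2 cluster 25, the cluster with Drd3 and Calcr, Cartpt was 0.1002 ± 0.021, against 0.0235 ± 0.0086 in D2 cluster 2.

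The genes with the most similar pattern over the 22 named classes were taken by Pearson's r of log2 mean levels, a description over classes that share libraries. Drd1, Adora2a, Rgs9, Nos1 and Htr3a among them are also markers that named the classes. For Penk, r was 0.870 with Adora2a and 0.726 with Gng7. Tac1 was nearest to Drd1 (0.823), Rgs9 (0.720) and Rarb (0.719), and Pdyn to Impg1 (0.769), Drd1 (0.765) and Kcnip2 (0.696). Sst was nearest to Crhbp (0.902), Nxph2 (0.866) and 1700003G18Rik (0.792), and Vip to Gm31706 (0.919), Htr3a (0.918) and Crh (0.913). Npy was nearest to Gm26995 (0.803), 7420701I03Rik (0.775) and Nos1 (0.773). Cartpt was nearest to Col9a2 (0.816), Gpr108 (0.788) and Arhgef38 (0.765), and Cck to Ccn3 (0.709), Gm44532 (0.704) and Enc1 (0.699).

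None of the precursors passed the test between genotypes. Heterozygous and wild-type libraries were compared in all nuclei and in the 16 classes for which each library held 20 nuclei or more, on the log2(mean + 0.01) scale, which understates changes of low genes. At an adjusted p under 0.05 (limma, adjusted over all genes tested in a population), 0 members were called of the 8 that passed the filter on low values in all nuclei, the 7 in D1 and 7 in D2 MSN-like nuclei, and of those that passed it in the other classes. Few genes of any kind were called: 0% of 14401 in all nuclei, 0.0298% of 13409 among D1 and 0.0157% of 12764 among D2 MSN-like nuclei, 0.0726% in Pthlh interneuron-like and 0.00865% in glutamatergic neuron-like nuclei, and 0% in the other 12 classes. The counts rested on the libraries: without wild-type replicate 1, 217 genes were called in the D1 and 125 in the D2 class, in place of 4 and 2. An unadjusted p under 0.05 was found for 9.93% of genes and 0 members in all nuclei, for 9.85% of genes and 1 member (Cartpt, past the filter only through the heterozygous libraries) in D1 MSN-like nuclei, and for 5.19% of genes and 1 member (Penk) in eccentric MSN-like nuclei. The p-values measure the spread between these libraries. The share of nuclei did not separate the genotypes either, at 17.6% ± 4.9 and 17.8% ± 2.5 for the D1 class (wild type and heterozygous, SD, n = 3 each; two-sided exact permutation p = 0.9) and 16.05% ± 4.6 and 13.8% ± 1.7 for the D2 class (exact p = 0.6).

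The libraries of the genotypes did not overlap for 5 of the tested pairs of precursor and class. In all nuclei 19.2% of genes and 0 of 8 members did not overlap, in D1 MSN-like nuclei 16.5% and 1 of 7 (Cartpt, which was under the filter's limits in the wild type), in D2 MSN-like nuclei 14.8% and 0 of 7, and in eccentric MSN-like nuclei 10.6% and 1 of 6 (Penk). The other members without overlap were Tac1 in endothelial-like nuclei (0.497 in wild-type, 0.655 in heterozygous libraries; 9.26% of genes) and Sst in mural-like (0.541 and 0.808; 10.1%; the wild-type sum was just under the filter's limit) and neuroblast-like nuclei (0.426 and 0.552; 9.8%). No member stood apart in Nos1 interneuron-like (11.6% of genes), Pthlh interneuron-like (11.9%), glutamatergic neuron-like (11.2%), astrocyte-like (12.2%), oligodendrocyte-like (10.3%), OPC-like (9.74%), committed oligodendrocyte precursor-like (11.5%), microglia-like (10.2%) or macrophage-like nuclei (9.18%), among the members tested there. In cholinergic interneuron-like nuclei (9.62% of genes) no member passed the filter and none was tested. Their Sst levels were 0.161, 0.125 and 0.1 in the wild type and 0.469, 0.279 and 0.273 in the heterozygotes, without overlap, in 9.65% and 25.2% of nuclei (exact permutation p = 0.1, two-sided). Pdyn there stood at 0.0323, 0 and 0 against 0.0625, 0.140 and 0.0455, also without overlap, and was found in 1.08% and 5.94% of nuclei (exact permutation p = 0.2, two-sided). The cholinergic interneuron-like class held only 30 to 44 nuclei per library, so these untested values are a description. All its Sst levels lay below the oligodendrocyte-like means, 0.591 in wild-type and 0.613 in heterozygous libraries. Of the untested values that lay lower in the heterozygotes without overlap, Pdyn in OPC-like nuclei stood at 0.0484, 0.0402 and 0.0365 against 0.0357, 0.0244 and 0.0313. Vip in Pthlh interneuron-like nuclei stood at 0.0137, 0.00840 and 0.0411 and was listed at 0 in each heterozygous library. The libraries held 28 to 288 OPC-like nuclei, 28 of them in heterozygous replicate 1, and 73 to 119 Pthlh interneuron-like nuclei. At such low values 1 nucleus can decide whether the groups overlap, so these are descriptions. The shares of genes without overlap given above cover tested genes only. For genes under the filter, as these untested members were, no such share was counted.

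Penk in D2 MSN-like nuclei had group means of 4.84 ± 0.29 (wild type) and 4.49 ± 0.22 (heterozygous; SD, n = 3 each), a change of -0.11 ± 0.07 (SE; limma adjusted p = 0.714). The groups overlapped. In D1 MSN-like nuclei the change was -0.02 ± 0.12 for Tac1 and 0.05 ± 0.14 for Pdyn (SE; limma adjusted p = 0.959 and 0.920). In Nos1 interneuron-like nuclei it was 0.01 ± 0.21 for Sst and -0.17 ± 0.26 for Npy (limma adjusted p = 1.00 and 0.960), and heterozygous replicates 2 and 3 were the extremes of both genes. For Cck in glutamatergic neuron-like nuclei the estimate was -0.24 ± 0.18 (limma adjusted p = 0.869), and -0.39 to -0.090 with 1 library left out. In eccentric MSN-like nuclei Penk stood at 1.70, 1.33 and 1.33 in the wild type and at 1.08, 1.26 and 1.10 in the heterozygotes, every heterozygous library below every wild-type one. Its change of -0.33 ± 0.14 did not pass adjustment (limma adjusted p = 0.931) and was -0.40 to -0.21 with 1 library left out.

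**Figure D4:**
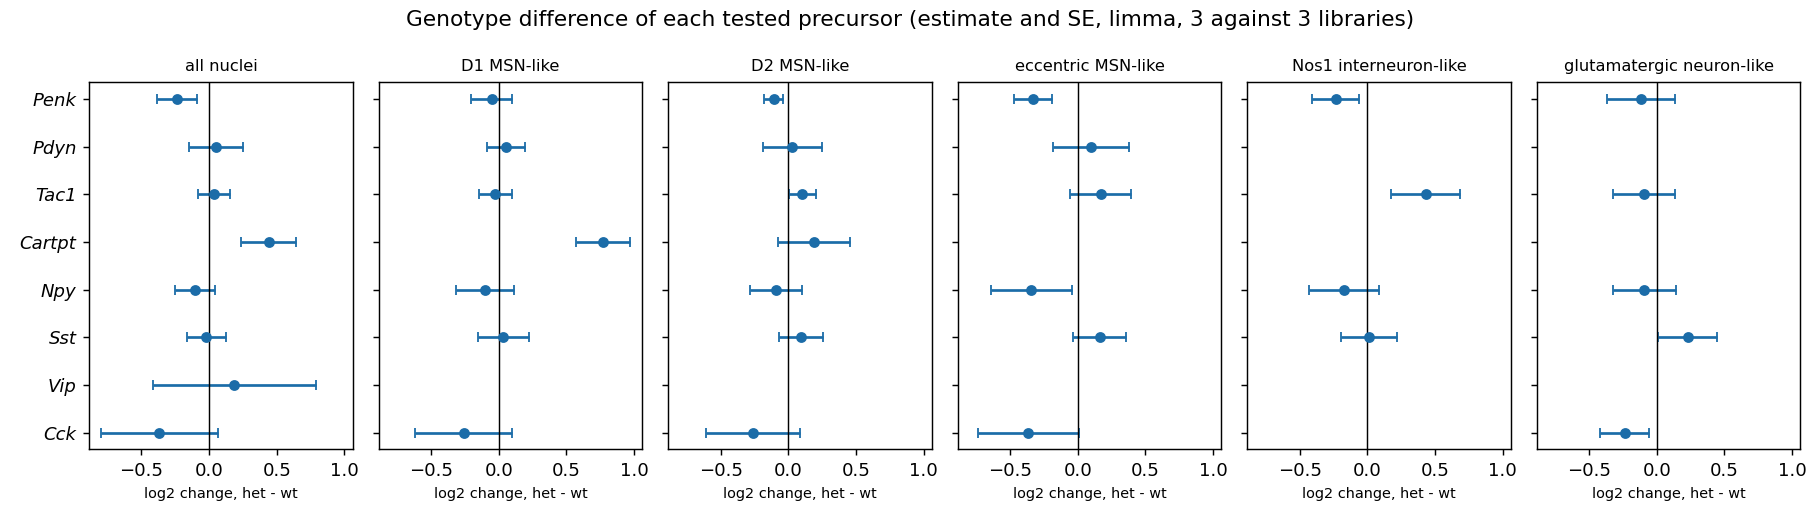
Log2 change, heterozygous minus wild type, of each precursor that passed the filter on low values in 6 populations; points are limma estimates and bars 1 standard error, from 3 libraries per genotype. Cartpt in D1 MSN-like nuclei (0.77) lies farthest from 0 but passed the filter only through the heterozygous libraries, and no estimate passed adjustment.

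The estimate farthest from 0 was that of Cartpt in D1 MSN-like nuclei, which passed the filter on low values through the heterozygous libraries alone, so the values are a description. The group means were 0.0179 in the wild type, under the limit of 0.02, and 0.0374 in the heterozygotes. Wild-type replicates 1 to 3 stood at 0.0240, 0.0133 and 0.0165 and heterozygous replicates 1 to 3 at 0.0442, 0.0380 and 0.0301, every heterozygous library above every wild-type library. The estimate of 0.77 ± 0.20 did not pass adjustment (limma adjusted p = 0.276, from 0.0349 to 0.761 over the alternatives), and because of the filter its p supports nothing. With a pseudocount of 0.1 in place of 0.01 the estimate was 0.22. A value of 1 or more was found in 1.72% ± 0.55 of wild-type and 3.50% ± 0.58 of heterozygous nuclei (exact permutation p = 0.1, two-sided, the smallest that 3 against 3 allows). The shares in oligodendrocyte-like nuclei were 1.86% and 2.10%, and the wild-type D1 share did not exceed them. The share was also higher without overlap in astrocyte-like nuclei, at 1.69% and 2.37%, and in all nuclei, at 2.49% and 3.55% (exact permutation p = 0.1 each, two-sided). In all nuclei the groups nearly touched, with 3.01% in wild-type replicate 1 and 3.03% in heterozygous replicate 3. How many of all genes did not overlap on this share was not counted. All nuclei include the D1 MSN-like nuclei, and the mix of classes differed between libraries. Of all Cartpt, the unnamed cluster 8 contributed 14.4% (0.649% to 34.6% over libraries), against 12.2% from D1 MSN-like nuclei. In all nuclei the Cartpt change was 0.44 ± 0.20 and the levels overlapped (limma adjusted p = 0.508). With 1 library left out it was 0.27 to 0.60. In D2 MSN-like nuclei the change was 0.19 ± 0.27. The difference of the effect between D1 and D2 MSN-like nuclei was 0.58 ± 0.20. It did not pass adjustment (limma adjusted p = 0.907), with 0.0236% of 12708 genes called. Cartpt entered that test through the same D1 filter, so this p supports nothing either. In eccentric MSN-like nuclei, where Cartpt was under the filter and not tested, the levels were 0.0414, 0.0444 and 0.0406 in the wild type and 0.0660, 0.0682 and 0.0833 in the heterozygotes. The share of nuclei with a value of 1 or more was 3.77% ± 0.26 and 3.77% ± 1.9 there (exact permutation p = 1, two-sided), and the mean over the nuclei with Cartpt was 1.12 and 2.26. In cholinergic interneuron-like nuclei, also untested, they overlapped, at 0.290, 0.725 and 0.267 against 0.594, 0.233 and 0.182.

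Ventral striatal genes were read beside Cartpt. Of the list's 8 genes, 6 were tested in D1 MSN-like nuclei and none was called, 5 of them had positive estimates, as had 65.1% of all genes, and the list's median was 0.32 beside 0.06 for all genes. Of the 6 tested in D2 MSN-like nuclei, 3 were positive, beside 60.3% of all genes, with a median of 0.15 beside 0.04. Medians of the other lists in D1 MSN-like nuclei were 0.16 (opioid receptors), 0.15 (matrix), 0.13 (peptide breakdown) and 0.12 (other peptide receptors). They were 0.12 for other precursors, 0.017 for processing and storage and -0.059 for striosome genes. The ventral list was chosen with earlier results of these data known. Drd3 was 0.0986 in wild-type and 0.192 in heterozygous D1 MSN-like nuclei without overlap (limma adjusted p = 0.215), and Dlk1 was 0.0517 and 0.0828, also without overlap, as for 16.5% of genes there (limma adjusted p = 0.455). In D2 MSN-like nuclei Drd3 was 0.0344 and 0.0747 (limma adjusted p = 0.310), and in all nuclei 0.0439 and 0.0835 (limma adjusted p = 0.456). In D1 MSN-like nuclei the summed level of the 8 genes overlapped, 1.61 to 2.44 against 1.80 to 2.49. Synpr was the largest part of that sum, with 1.10 against 0.145 for Drd3 and 0.0672 for Dlk1 (means of 6 libraries). The sum therefore says little about the low genes of the list. Cluster 12 took 11.98%, 11.6% and 14.5% of wild-type and 16.8%, 21.3% and 12.4% of heterozygous D1 MSN-like nuclei, and within it Drd3 was 0.146, 0.464 and 0.341 against 0.721, 0.682 and 0.565. With the 3 clusters given equal weight, the Cartpt change was 0.86. The Cartpt level was 0.0164 ± 0.0080 (wild type) and 0.0268 ± 0.0047 (heterozygous) in cluster 1, 0.0329 ± 0.014 and 0.0832 ± 0.059 in cluster 12, and 0.0126 ± 0.0057 and 0.0300 ± 0.0052 in cluster 13 (exact permutation p = 0.2, 0.3 and 0.1, two-sided). The part of the ventral genes in the Cartpt change was not tested beyond these values.

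No gene passed the test among those that make, store, receive or break down the peptides, in all nuclei or either MSN class. In D1 MSN-like nuclei 0 of 12 tested processing and storage genes, 0 of 7 other precursors, 0 of 7 breakdown enzymes, 0 of 3 opioid receptors and 0 of 9 other peptide receptors were called. In D2 MSN-like nuclei the counts were 0 of 12, 0 of 6, 0 of 7, 0 of 4 and 0 of 6. Over all genes 0.0298% of 13409 were called in D1 and 0.0157% of 12764 in D2 MSN-like nuclei. Counts of 0 therefore do not set these lists apart from other genes. Oprk1, the receptor of the dynorphins made from Pdyn, had a level of 0.294 in wild-type and 0.391 in heterozygous D1 MSN-like nuclei without overlap, as for 16.5% of genes, a change of 0.40 ± 0.13 (limma adjusted p = 0.376). Pcsk2, a convertase that cuts precursors, was 6.14 and 6.89 in D2 MSN-like nuclei without overlap (limma adjusted p = 0.494), as for 14.8% of genes. Sv2b, a matrix list gene, was 0.879 and 1.03 in D1 MSN-like nuclei (limma adjusted p = 0.450). Cadps, of dense-core vesicle release, was 3.63 and 3.27 in D1 MSN-like nuclei (limma adjusted p = 0.492), and Scg2, a granin, 0.553 and 0.635 (limma adjusted p = 0.466). In D2 MSN-like nuclei Thop1, a peptidase, was 0.0400 and 0.0564 without overlap, as for 14.8% of genes (limma adjusted p = 0.514), and in all nuclei Nln, another peptidase, was 0.233 and 0.274 without overlap, as for 19.2% of genes (limma adjusted p = 0.475).

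Receptors of the peptides were read over the named classes, without the unnamed clusters. Tacr1, the substance P receptor, had a level of 11.9 ± 1.8 in cholinergic and 6.20 ± 1.3 in Nos1 interneuron-like nuclei, against 0.0351 in D1 MSN-like nuclei, where Tac1 is high. Oprd1, a receptor for enkephalins, had 1.72 ± 0.20 in cholinergic and 0.787 ± 0.15 in other GABAergic interneuron-like nuclei. It had 0.686 ± 0.076 in D2 MSN-like nuclei, against 0.0205 in D1 MSN-like nuclei. Among the named classes, Oprm1 was highest in glutamatergic neuron-like nuclei, 2.63 ± 0.49. Npy1r was highest in Htr3a interneuron-like nuclei, 0.580 ± 0.24, and Npy2r in Nos1 interneuron-like nuclei, 0.412 ± 0.13, a class that was also high in Npy.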

How the data were processed

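The data were 6 libraries of striatal nuclei made with 10x Genomics 3′ chemistry and sequenced together, per the labels' protocols. Cell Ranger, Seurat 4.1 and mm10 are named in the submitters' processing notes, with no roles. The table the authors deposited was treated as a score, a depth-corrected transcript count rounded to whole numbers, since totals spanned only 4523 to 10638 per nucleus; the step is not given in the sources used here. Original depth is therefore unknown, no counting intervals are given, and the test planned for raw counts was replaced by limma 3.58.1 (R 4.3.3, trended) with Benjamini-Hochberg adjustment on log2(library mean + 0.01). Genes needed a mean of 0.02 and a summed value averaging 30 per library. Clusters came from 2000 variable genes without the precursors, 30 principal components, 15 neighbours and Leiden resolution 1.0 (igraph 0.11.9, scanpy 1.11.5, Python 3.11.15). Scrublet called 0.317% to 0.824% of nuclei, too few in some libraries, so nuclei with a score above 0.25 or in a cluster with more than 40% of those were dropped. Clusters left with fewer than 20 nuclei were dropped too, which made 814 nuclei in all. The linear model was tested on simulated data.

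Named were all 8 precursors, Celsr3 and, per gene list and in all nuclei or either MSN class, called genes or else up to 3 genes with an unadjusted p under 0.05 whose groups did not overlap. Genes of similar pattern were the 3 with the highest r, of which 1 is not reported here. The members and lists were chosen with earlier results of these data known. Alternatives changed the pseudocount, filter, scaling, weights, clustering, replicate block and libraries.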

Additional observations from a re-analysis of the deposited data

How the results depend on the processing

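Of 152 values of single precursors under alternatives other than leaving out a library, 138 kept their direction and side of the threshold, and of 132 values with 1 library left out, 106 did. The causes of the reversals were not tested. With size factors the change in all nuclei was -0.013 for Pdyn and -0.033 for Tac1. With array weights it was -0.48 for Vip in all nuclei, 0.078 for Tac1 in D1 MSN-like and -0.053 for Sst in Nos1 interneuron-like nuclei. From the share of nuclei with a value of 1 or more it was 0.10 for Sst in all nuclei, 0.011 for Tac1 and -0.014 for Pdyn in D1 MSN-like nuclei, and 0.012 for Npy in Nos1 interneuron-like nuclei. At Leiden resolution 2.0 it was 9.461e-04 for Tac1 in D1 MSN-like and -0.17 for Sst in Nos1 interneuron-like nuclei. With clusters weighted equally it was -0.020 for Pdyn in D1 MSN-like nuclei. Without cluster 11, an alternative chosen after seeing the data, it was 0.040 for Sst in all nuclei. Cartpt in D1 MSN-like nuclei, past the filter only through the heterozygous libraries, had an estimate of 0.84 with array weights (limma adjusted p = 0.0349), which called 505 genes in this class, and was 0.65 to 0.92 with 1 library left out (limma adjusted p = 0.0564 to 0.761).

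With 1 library left out, the ranges that crossed 0 in all nuclei were -0.11 to 0.24 for Pdyn, -0.090 to 0.10 for Tac1, -0.39 to 0.51 for Vip, -0.14 to 0.078 for Sst and -0.74 to 0.026 for Cck. They were -0.13 to 0.13 for Tac1 and -0.066 to 0.18 for Pdyn in D1 MSN-like nuclei, -0.053 to 0.43 for Cartpt in D2 MSN-like nuclei and -0.076 to 0.34 for Tac1 in eccentric MSN-like nuclei. They were -0.49 to 0.16 for Npy and -0.26 to 0.24 for Sst in Nos1 interneuron-like nuclei. For the D1 against D2 difference they were -0.053 to 0.24 for Penk and -0.15 to 0.25 for Pdyn.

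Counts of all called genes moved more. In D1 MSN-like nuclei (4 called) there were 2 with no filter, 505 with array weights and 1 to 217 with 1 library left out, 217 without wild-type replicate 1. In D2 MSN-like nuclei (2) there were 4 with size factors, 172 with array weights, 1 from the share of nuclei, 1 with equal cluster weights and 0 to 125 with 1 library left out, 125 without wild-type replicate 1. In all nuclei (0) there was 1 from the share. With no filter there were 2 in eccentric MSN-like (0), 16 in Nos1 interneuron-like (0) and 0 in glutamatergic neuron-like nuclei (1). Leiden resolution 2.0 gave 1 in Nos1 interneuron-like nuclei. Array weights gave 2 in glutamatergic neuron-like nuclei, and leaving out 1 library 0 to 1. The D1 against D2 difference (3) gave 0 with no filter and 1 to 25 with 1 library left out, 25 without heterozygous replicate 3. With the precursors allowed among the clustering genes, the levels in Nos1 interneuron-like nuclei were 16.7 for Npy and 26.6 for Sst, which are not independent of that grouping.

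With the replicate number as a block, 6 genes were called in D2 and 3 in D1 MSN-like nuclei, 1 in Nos1 interneuron-like and 0 in glutamatergic neuron-like nuclei. The mean of each genotype was subtracted from the log2 levels of each gene, and the deviations were correlated between libraries of the 2 genotypes. For same-numbered libraries these correlations were -0.04, 0.14 and -0.07 in all nuclei. They were 0.27, 0.019 and 0.18 in D1 and 0.26, 0.046 and 0.18 in D2 MSN-like nuclei. In these populations, 2, 3 and 4 of 6 libraries correlated best with their own number. Since not every pair exceeded 0.1 in any of them, the numbers were not taken as pairs. Original depth limits what could be seen of low genes such as Cartpt and Vip.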
